A study of Bos taurus with 15 samples.

Results

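The insulin-like growth factor binding proteins *IGFBP1* to *IGFBP7* were followed across the digestive tract, liver and salivary gland of cattle by single-cell RNA sequencing (scRNA-seq). The members were the 7 genes that carry these symbols in the gene annotation of the deposited count matrices, of 27270 genes in all, and all 7 were present. The data were 15 libraries of Holstein dairy cattle, each 1 tissue at 1 stage, made with the 10x Genomics 3′ chemistry. The 11 newborn (NB) libraries covered salivary gland, liver, 2 forestomach chambers (reticulum and omasum), the glandular stomach (abomasum), the small intestine (duodenum, jejunum and ileum) and the large intestine (rectum, colon and cecum). The 4 adult (AD) libraries covered duodenum, jejunum, cecum and colon. The NB tissues came from 3 calves, and which calf gave which library was not stated in the labels. All AD tissues were taken from 1 lactating cow. The dissociation differed as well: the AD jejunum and colon were digested with a multi-tissue kit and the AD duodenum and cecum with a lamina propria kit. The NB gut was stripped with EDTA and trypsin before the lamina propria kit. The NB reticulum, omasum, abomasum, liver and salivary gland were digested with other enzyme mixtures. Stage, animal and dissociation therefore cannot be told apart in any comparison of NB with AD. Among the NB libraries, organ cannot be told apart from calf, nor from dissociation where the enzymes differed. The muscle layers had been removed from the stomach and gut samples before digestion.

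IGFBPs are secreted proteins that bind IGF1 and IGF2, the growth factors that signal through the receptor IGF1R, and by holding them in the circulation or in the matrix they set how much ligand reaches that receptor. *IGFBP1* to *IGFBP6* encode high-affinity binders, whereas the product of *IGFBP7* binds IGFs weakly and is found in the basement membrane of vessels. IGFBPs are released from their ligand by proteases such as PAPPA, which cuts IGFBP4, and in the gut IGF signaling is known for its role in the growth of the mucosa and of the muscle. In the RefSeq annotation of the ARS-UCD2.0 cattle assembly, *IGFBP2* and *IGFBP5* are direct neighbors on chromosome 2 and *IGFBP1* and *IGFBP3* on chromosome 4, while *IGFBP6*, *IGFBP7* and *IGFBP4* lie on chromosomes 5, 6 and 19.

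After quality filters, 119798 of 172405 barcodes were kept, each barcode standing for 1 droplet and most often 1 cell. The libraries held between 17707625 and 129458578 UMIs (unique molecular identifiers, each counted as 1 captured RNA molecule), and the median kept barcode held between 3512 UMIs in the AD duodenum and 8796 in the NB reticulum. A pair of libraries shared at most 36 barcode sequences and, in another pair, at most 0.497% of the barcodes of the smaller library. Each kept barcode was assigned to a lineage when it carried a UMI of that lineage's marker and none of the others: *EPCAM* or *KRT14* for epithelial, *PTPRC* for leukocyte, *COL1A2* for stromal and *PECAM1* for endothelial barcodes. Levels are given in CPM, the UMIs of a gene per 1000000 UMIs summed over the barcodes of a lineage in a library, for the 50 combinations with at least 50 barcodes. Since each tissue and stage had 1 library, no difference was tested, and the intervals given in brackets are exact 95% Poisson intervals that cover counting error only. In these 3′ libraries a UMI stands for a transcript end, so the values are not scaled by gene length, and the capture of the ends of different genes can differ.

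The lineages were checked against further markers. *CDH5*, an adhesion gene of endothelial junctions, stood between 335 and 453 CPM in the endothelial barcodes of 9 NB libraries, at 93.0 CPM in those of the NB liver and at 298 CPM in those of the AD colon. In the *PECAM1* barcodes of the AD duodenum and AD jejunum, *CDH5* was at 1.67 and 0 CPM and *VWF* at 4.17 and 2.94 CPM, while the T cell gene *CD3E* was at 125 and 22.1 CPM and the macrophage gene *CSF1R* at 26.7 and 122 CPM. These barcodes were therefore not treated as endothelium, and the AD endothelium was read in the colon only, where 52 barcodes qualified. Stromal barcodes numbered 82 in the NB reticulum to 2938 in the NB jejunum and 145 in the AD colon, but only 1, 4 and 3 in the AD duodenum, jejunum and cecum and 8 in the NB liver, which were left out. The tissue markers followed the labels: *KRT5* was at 6351 and 7623 CPM in the epithelium of reticulum and omasum and at most 2.25 CPM in the other NB epithelia, *CYM* (chymosin) reached 247525 CPM in the abomasum, and *ALB* was at 989 CPM in the liver epithelial barcodes.

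In the NB tissues, IGFBP RNA was found mainly outside the immune lineage, and for each of the 7 genes the stromal barcodes had the highest median level over libraries. *IGFBP3*, *IGFBP4*, *IGFBP6* and *IGFBP7* were shared between stroma and endothelium, whereas *IGFBP2* and *IGFBP5* were mostly stromal. The stromal level was at least 2-fold above every other lineage measured in the same library, on the log2(CPM + 5) scale used for all ratios, in 7 of 10 libraries for *IGFBP2* and in 6 of 10 for *IGFBP5*. It was so in 4 libraries for *IGFBP3*, 3 for *IGFBP6*, 2 for *IGFBP1* and 1 each for *IGFBP4* and *IGFBP7*. In the salivary gland only leukocytes were measured beside the stroma, since its epithelial and endothelial barcodes numbered 27 and 21. This gland was counted for every member except *IGFBP2* and *IGFBP4*, and it was the 1 library of *IGFBP7*. Thus 2 of 7 members led in the stroma in more than 5 of the 10 libraries, and 6.97% of all 9307 genes tested did so. *IGFBP5* had 6 such libraries with the salivary gland and 5 without it. *IGFBP1*, with every lineage median under 10 CPM, was not among the genes tested. When barcodes with markers of several lineages were kept as well, 1 member led in this way. The endothelium was at least 2-fold above the other lineages measured in 5 libraries for *IGFBP6* and in 1 each for *IGFBP3*, *IGFBP4*, *IGFBP5* and *IGFBP7*. For *IGFBP3*, *IGFBP4* and *IGFBP7* that library was the liver, where no stromal profile was available, and the 5 of *IGFBP6* include it. The epithelium led for *IGFBP2* in 2, the reticulum and the omasum.

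**Figure D1:**
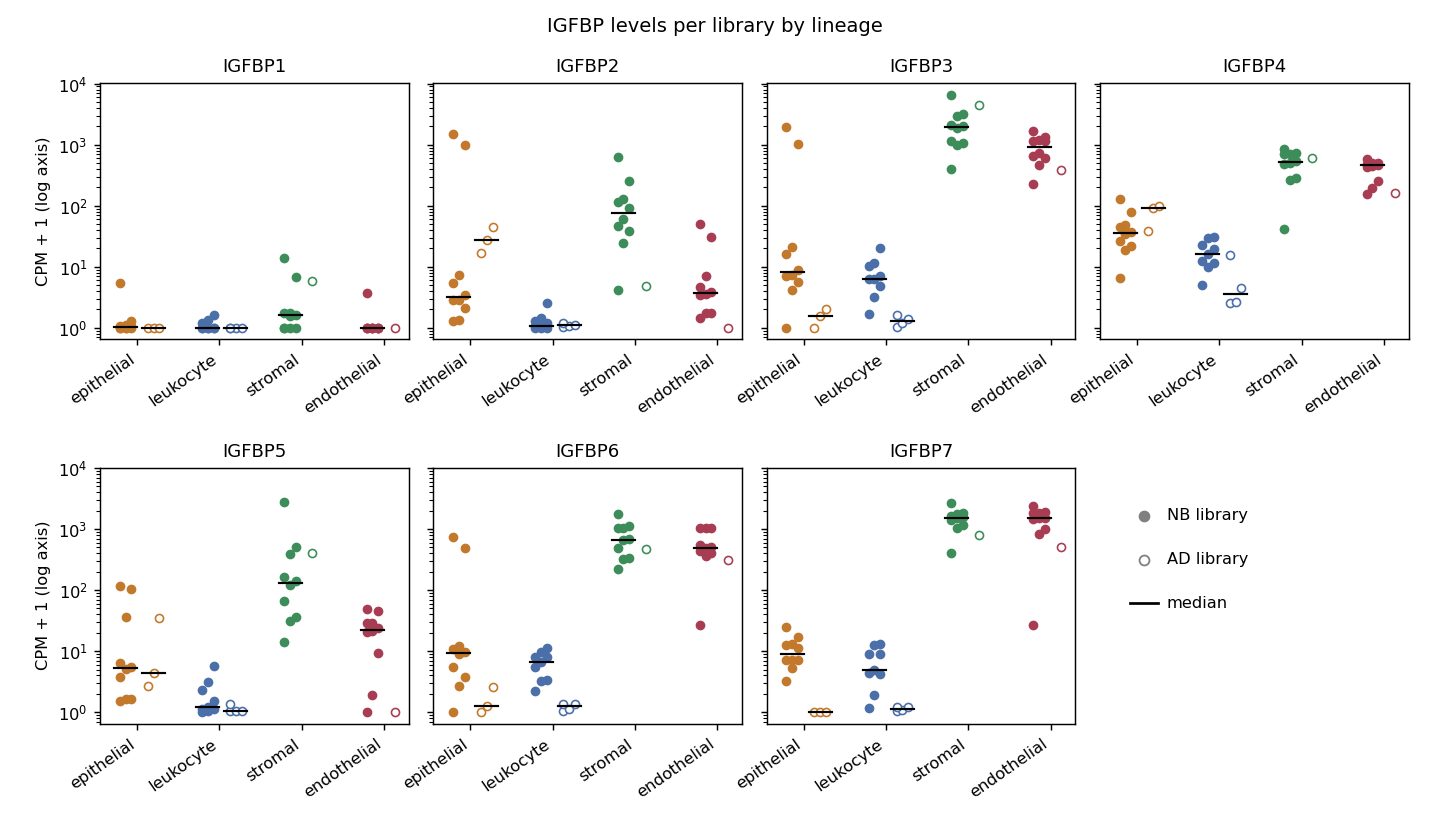
Level of each IGFBP gene (CPM + 1, log axis) in epithelial, leukocyte, stromal and endothelial barcodes, with 1 point per library and NB and AD drawn apart. Black lines give the median where there was more than 1 library, and the AD endothelial points are the colon only. The stromal and endothelial points of *IGFBP3*, *IGFBP4*, *IGFBP6* and *IGFBP7* lie well above the leukocyte points, and 2 epithelial points, reticulum and omasum, stand far above the other epithelia for *IGFBP2*, *IGFBP3* and *IGFBP6*.

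*IGFBP3*, the main IGF carrier of serum, ranged over the 10 NB stromal profiles from 401 CPM in the cecum through a median of 1946 to 6560 (6458–6663) CPM in the duodenum. In the NB endothelium it ranged from 227 CPM in the liver through 930 to 1673 CPM in the jejunum. The NB leukocytes were far lower, from 0.699 through 5.38 to 19.0 CPM, and did not overlap with either. *IGFBP7* showed the same contrast: 411 CPM (salivary gland), 1546 and 2685 CPM (colon) as the lowest, median and highest stromal values, 26.0 CPM (liver), 1515 and 2387 CPM (duodenum) in the endothelium, and at most 12.3 CPM in NB leukocytes. *IGFBP6*, whose product prefers IGF2, ran from 219 CPM in the colon through 669 to 1779 CPM in the salivary gland in the stroma, and from 26.0 CPM in the liver through 497 to 1052 CPM in the duodenum in the endothelium. *IGFBP4*, a binder that mostly restrains IGF action, was between 40.2 CPM (salivary gland) and 846 CPM (reticulum) in the stroma with a median of 514, and between 156 CPM (liver) and 580 CPM (cecum) in the endothelium with a median of 460. The liver values of this gate are set beside a stricter one further on, under which *IGFBP4* in the liver was the highest of 10 libraries.

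In the 7 NB libraries with all 4 lineages, the lower of stroma and endothelium was at least 2-fold above the higher of epithelium and leukocytes in every library for 4 of 7 members, and for 2.32% of all 11312 genes tested; this comparison was chosen after the levels had been seen. The smallest and largest of these log2 ratios were 5.15 and 6.61 for *IGFBP3*, 5.12 and 7.43 for *IGFBP7*, 4.37 and 5.36 for *IGFBP6*, and 1.92 and 4.42 for *IGFBP4*. *IGFBP5* met the criterion in 5 of the 7 libraries, *IGFBP2* in 1 and *IGFBP1* in 0. When barcodes with markers of several lineages were kept as well, 1 member met it in all 7.

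*IGFBP1*, which in mammals is made above all by hepatocytes, was close to the limit of detection throughout. Its NB stromal levels ran from 0 through a median of 0.604 to 12.9 (5.55–25.3) CPM in the salivary gland, where 8 UMIs were counted, and the liver epithelial barcodes held 4.50 CPM. The 129 hepatocyte-like barcodes of the NB liver, which carried UMIs of at least 3 genes of a hepatocyte list, had 6.63 (2.15–15.5) CPM from 5 UMIs, against 54.4 (39.0–73.8) CPM of *IGFBP4*.

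The stromal members differed strongly between organs, and each with its own order. *IGFBP2*, a binder that is abundant in fetal tissues, was highest in the duodenum at 620 (589–653) CPM and in the abomasum at 257 CPM, followed by ileum (127), omasum (114), jejunum (91.1), reticulum (59.0), cecum (46.3), rectum (37.9) and colon (23.7), and it was lowest in the salivary gland at 3.21 (0.389–11.6) CPM. The stroma of duodenum and abomasum thus stood above all others, and the intervals of neighbors in this order overlapped from the ileum down to the cecum. The *IGFBP2* values of reticulum and omasum are set beside the share of a keratin further on. *IGFBP3* was likewise highest in the duodenum (6560 CPM), abomasum (3241) and jejunum (2988), then came reticulum (2067), omasum (2039) and colon (1853), whose neighboring intervals overlapped, then rectum (1142), ileum (1077) and salivary gland (993), which overlapped in the same way, and cecum (401). The cecum was thus lowest for *IGFBP3*, although for *IGFBP4* it came, at 724 CPM, directly after the reticulum at 846 CPM and ahead of jejunum (716), duodenum (695), rectum (530), abomasum (497), ileum (488), omasum (288), colon (265) and salivary gland (40.2). For *IGFBP4* neighboring intervals overlapped from reticulum to duodenum, from rectum to ileum and between omasum and colon, so the order within these groups was not resolved.

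*IGFBP5*, whose product binds the extracellular matrix, spread over the organs as follows. The salivary gland stroma reached 2777 (2647–2911) CPM, the reticulum 517 and the abomasum 385 CPM, followed by omasum (164), rectum (138), cecum (120), duodenum (65.4), colon (35.2), jejunum (30.1) and ileum (13.1). The same gland was highest for *IGFBP6* at 1779 CPM, ahead of cecum (1135), rectum (1049), reticulum (1038), omasum (679), abomasum (658), duodenum (496), jejunum (332), ileum (319) and colon (219). The salivary stroma therefore stood at the top for *IGFBP5* and *IGFBP6* and at the bottom for *IGFBP2*, *IGFBP4* and *IGFBP7*. *IGFBP7* was found with 2685 CPM in the colon, 1862 in the rectum, 1733 in the jejunum, 1620 in the ileum, 1563 in the duodenum, 1529 in the omasum, 1428 in the cecum, 1174 in the abomasum, 1048 in the reticulum and 411 in the salivary gland. Neighboring intervals overlapped from ileum to cecum and between abomasum and reticulum for *IGFBP7*, between omasum and rectum and between colon and jejunum for *IGFBP5*, and between rectum and reticulum, omasum and abomasum, and jejunum and ileum for *IGFBP6*. The salivary stromal profile rested on 111 barcodes and 622346 UMIs, and 70 fibroblast-like barcodes of that gland gave 3724 CPM of *IGFBP5*.

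**Figure D2:**
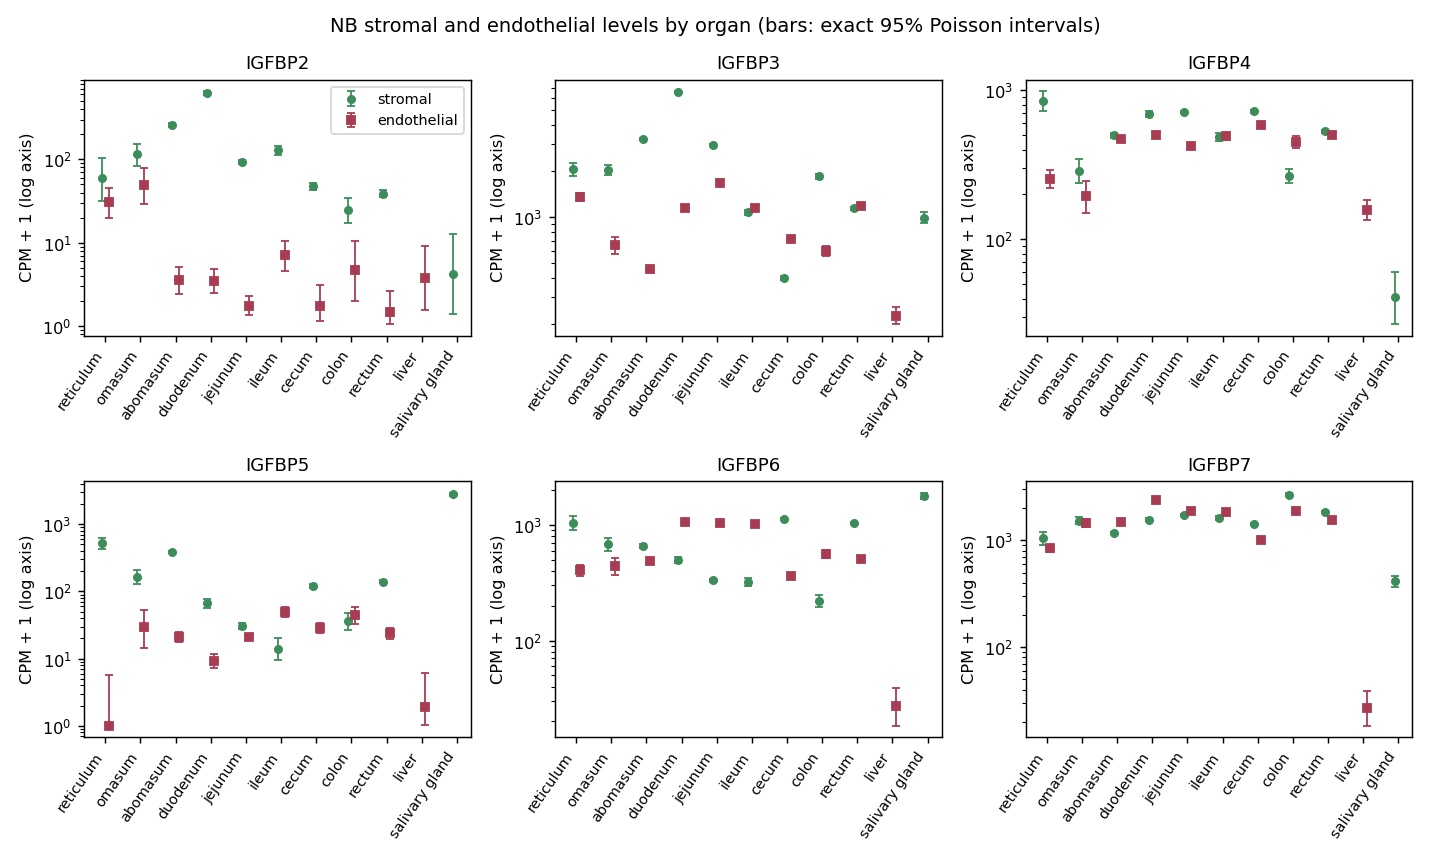
Level of *IGFBP2* to *IGFBP7* (CPM + 1, log axis with its own scale in each panel) by NB organ, for stromal and endothelial barcodes, with exact 95% Poisson intervals as bars. The salivary stroma is highest for *IGFBP5* (2777 CPM) and *IGFBP6* (1779 CPM), the duodenal stroma for *IGFBP2* (620 CPM) and *IGFBP3* (6560 CPM), and the liver *PECAM1* barcodes, which hold more *CSF1R* than *CDH5*, are lowest for *IGFBP3*, *IGFBP4*, *IGFBP6* and *IGFBP7*; in the stricter blood endothelial-like barcodes this was not so for *IGFBP3* (1201 CPM) and *IGFBP4* (954 CPM).

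In the endothelium, *IGFBP6* followed another order than in the stroma. It was at 1052, 1033 and 1025 CPM in the 3 parts of the small intestine, at 361 to 556 CPM in the stomachs and the large intestine and at 26.0 CPM in the liver, whereas in the stroma the small intestine was among the lowest. *IGFBP7* and *IGFBP3* were also lowest in the liver endothelial barcodes, at 26.0 and 227 CPM, but that gate held 53.0 CPM of *CD3E* and 158 CPM of *CSF1R* beside 93.0 CPM of *CDH5*. A stricter gate was therefore read beside it. The 79 barcodes of the liver with UMIs of at least 3 blood endothelial genes had 224 (171–288) CPM of *IGFBP7*, against 908 to 2896 CPM in the blood endothelial-like barcodes of 9 other NB libraries, and their *IGFBP6* was at 168 (122–225) CPM, likewise the lowest. Their *IGFBP3* (1201 CPM) lay within the range of those libraries and their *IGFBP4* (954 CPM) above it.

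The epithelium of the forestomach, a keratinized stratified layer, was the exception to the low epithelial levels. In the reticulum and omasum, epithelial *IGFBP2* was at 977 (969–985) and 1483 (1475–1491) CPM, and the highest of the 8 other NB epithelia had 6.32 CPM. Epithelial *IGFBP3* was at 1007 and 1923 CPM against at most 19.8 CPM elsewhere. *IGFBP6* stood at 729 and 490 CPM against at most 11.3 CPM, and *IGFBP5* at 117 and 104 CPM against at most 35.1 CPM. Both forestomach epithelia were at least 2-fold above every other NB epithelium for these 4 of 7 members, and for 3.02% of all 9767 genes tested. This comparison was not among those planned beforehand. The log2 ratio of the lower forestomach value to the highest other value was 6.44 for *IGFBP2*, 5.35 for *IGFBP3*, 4.92 for *IGFBP6* and 1.45 for *IGFBP5*. *IGFBP4*, at 36.4 and 43.0 CPM against up to 128 CPM in the rectum, and *IGFBP7*, at 4.29 and 10.1 CPM against up to 24.3 CPM in the cecum, did not share this pattern.

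*IGFBP2*, *IGFBP3* and *IGFBP6* were found in most forestomach epithelial barcodes, and *IGFBP5* in 48.2% and 47.3% of them. *IGFBP2* had a UMI in 91.6% of 6134 barcodes in the reticulum and in 95.5% of 9068 in the omasum, at median depths of 9654 and 9179 UMIs. When each barcode was thinned to 2000 UMIs, which left 5847 and 8804 barcodes, the shares were 73.2% and 84.5%. In the same libraries the thinned share was 4.38% and 13.4% of endothelial barcodes (160 and 82 barcodes) and, in the omasum, 20.3% of 79 stromal barcodes. Leukocytes were too few there, and in NB leukocytes of the other organs the thinned share was 0 to 0.218%. The stromal gene *DCN* (decorin) was present in the forestomach epithelial barcodes at 2.17% and 1.40% of its stromal level in the same library, whereas *IGFBP3* was at 48.7% and 94.3% and *IGFBP6* at 70.2% and 72.1% of theirs. In the other direction, *KRT5* was in the stromal barcodes of reticulum and omasum at 8.14% and 7.22% of its epithelial level, and *IGFBP2* at 6.04% and 7.66%. The stromal *IGFBP2* of the forestomach was thus close to the share of a keratin, below it in the reticulum and above it in the omasum.

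In the reticulum and omasum, all kept barcodes, whatever their lineage marker, were also assigned by lists of basal genes (*KRT14*, *KRT5*, *TP63*, *COL17A1*, *KRT15*) and of genes of differentiated keratinocytes (*KRT4*, *KRT6A*, *SBSN*, *KRTDAP*, *TGM3*, *DSG1*, *KRT10*). A barcode went to the list of which it carried at least 3 genes, and more than of any other list. *IGFBP2* was at 1069 CPM in basal-like and 454 CPM in differentiated-like barcodes of the reticulum, and at 1636 and 805 CPM in the omasum. *IGFBP5* was at 137 against 30.6 CPM and at 132 against 24.8 CPM, and *IGFBP4* at 40.9 against 12.5 CPM and at 50.3 against 15.3 CPM. These 3 of 7 members were at least 2-fold higher in basal-like barcodes in both libraries, as were 3.54% of all 7287 genes tested, and no member was 2-fold higher in the differentiated-like barcodes in both, as were 3.24% of the genes. *IGFBP3* differed between the organs: its basal and differentiated levels were 961 and 977 CPM in the reticulum, with overlapping intervals, and 2155 and 911 CPM in the omasum. *IGFBP6* was at 747 and 529 CPM in the reticulum and at 581 and 174 CPM in the omasum.

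Among other epithelia, single members stood out in single cell types. In the abomasum, the 742 parietal-like barcodes, the acid-secreting type, had 112 (105–120) CPM of *IGFBP5*, against 24.3 (13.9–39.5) CPM in chief-like and 14.6 (9.36–21.7) CPM in pit mucous-like barcodes. *IGFBP2* was instead highest in pit mucous-like barcodes, with 98.1 (83.5–114) CPM against 1.98 CPM in parietal-like ones. In chief-like barcodes it was at 16.7 CPM from 59 barcodes, and at 1.70 CPM from 829 barcodes with a list minimum of 2 genes. *IGFBP4* was found in the enterocyte-like barcodes of every library that had them, with 24.0 to 188 CPM in 6 NB libraries and 68.5 to 134 CPM in 3 AD libraries, against 0 to 9.23 CPM in the goblet-like barcodes of 4 NB libraries. With a list minimum of 2 genes, goblet-like barcodes of the NB rectum joined these at 24.1 CPM, which is at the lower end of the enterocyte values. In the AD colon, 50 tuft-like barcodes found with a list minimum of 2 genes held 284 (206–383) CPM of *IGFBP2*, from 43 UMIs.

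**Figure D3:**
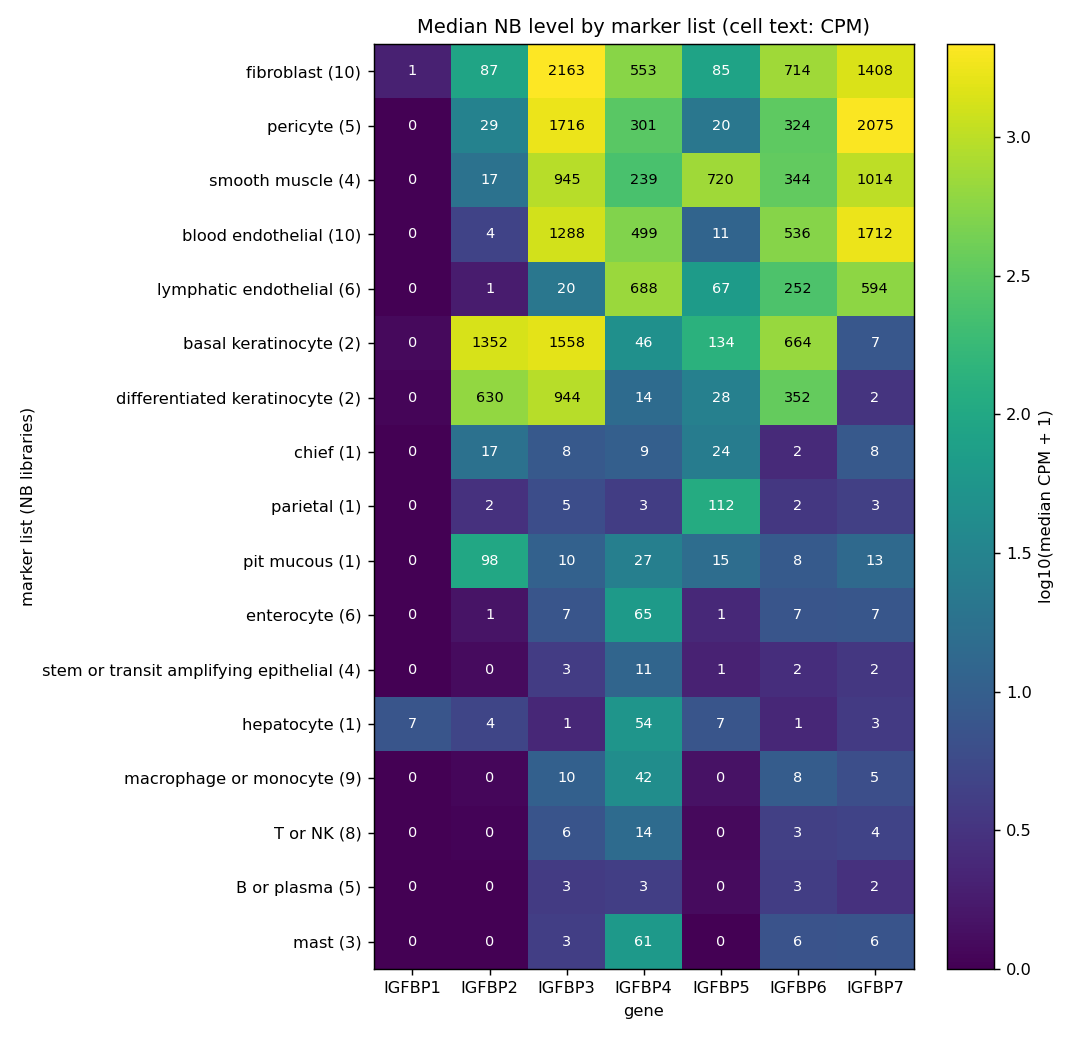
Median level of each IGFBP gene over NB libraries (CPM, written in each cell, color on a log scale of CPM + 1) in barcodes assigned by marker lists, with the number of libraries in brackets. The basal and differentiated keratinocyte rows carry *IGFBP2*, *IGFBP3* and *IGFBP6*, the lymphatic endothelial row is low for *IGFBP3* (20.3 CPM) beside the blood endothelial row (1288 CPM), and the smooth muscle row is high for *IGFBP5* (720 CPM).

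All kept barcodes were assigned in the same way by blood vessel genes (*CDH5*, *VWF*, *KDR*, *PLVAP*, *FLT1*, *EMCN*, *CLDN5*) and lymphatic genes (*PROX1*, *LYVE1*, *FLT4*, *CCL21*, *RELN*, *MMRN1*), with both types in 6 NB libraries. Of these types, *IGFBP3* was found mainly in the blood endothelial one. Its blood endothelial levels in abomasum, duodenum, jejunum, ileum, cecum and rectum were 512, 1432, 2122, 1653, 1459 and 1376 CPM, and the lymphatic levels in the same order were 12.2, 117, 47.7, 28.4, 8.68 and 11.1 CPM. The ranges did not overlap and the log2 ratio lay between 3.56 and 6.74. *IGFBP5* showed the opposite order, with 9.79, 3.41, 11.1, 15.9, 16.7 and 17.0 CPM in blood and 64.3, 22.3, 69.2, 99.3, 77.3 and 44.3 CPM in lymphatic barcodes, and log2 ratios of blood to lymphatic between -2.32 and -1.16. At least 2-fold higher in blood endothelial barcodes in all 6 libraries was 1 member of 7 (3.83% of all 9140 genes tested), and 1 member was so in lymphatic barcodes (3.81%).

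The other vascular members depended on the organ. *IGFBP7* was higher in blood than in lymphatic barcodes in 6 of 6 libraries and at least 2-fold so in 4, with 1529, 2896, 2445, 2585, 1274 and 1822 CPM against 833, 387, 74.9, 110, 801 and 874 CPM. The lymphatic level was thus low in the small intestine and about level across abomasum, cecum and rectum. *IGFBP6* was also higher in blood barcodes in 6 of 6 libraries and at least 2-fold so in 4, at 480, 1265, 1351, 1324, 488 and 583 CPM against 358, 317, 184, 207, 177 and 298 CPM, and the blood level was again highest in the small intestine. *IGFBP4* was higher in lymphatic barcodes in 6 of 6 libraries but at least 2-fold so in 1, with log2 ratios of blood to lymphatic between -1.11 in the abomasum (412 against 894 CPM) and 0.00, and with overlapping intervals in jejunum and cecum. With a list minimum of 2 genes, *IGFBP4* was higher in lymphatic barcodes in 5 libraries and in blood barcodes in 1, at a log2 ratio of 0.06.

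**Figure D4:**
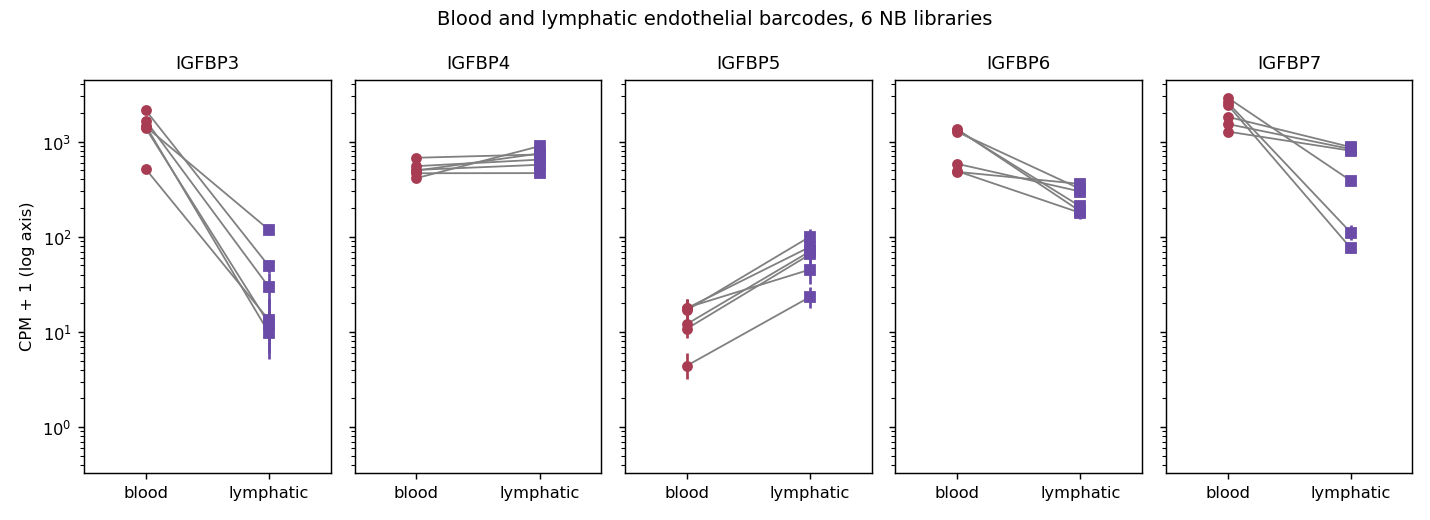
Levels of *IGFBP3* to *IGFBP7* (CPM + 1, log axis) in blood and lymphatic endothelial-like barcodes of 6 NB libraries, lines joining the values of 1 library and bars giving exact 95% Poisson intervals. All *IGFBP3* lines fall from blood to lymphatic barcodes and all *IGFBP5* lines rise, while the *IGFBP4* lines are close to flat outside the abomasum.

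Of the stromal types, the marker lists gave fibroblast-like, pericyte-like and smooth muscle-like barcodes, again without the lineage gate. Smooth muscle-like barcodes, found in 4 NB libraries, held *IGFBP5* at 658 CPM in the abomasum, 243 in the jejunum, 914 in the cecum and 782 in the rectum, whereas the fibroblast-like barcodes of these libraries held 217, 17.5, 65.6 and 94.6 CPM. The intervals of the 2 types did not overlap within any library, and the log2 ratio lay between 1.58 and 3.70. *IGFBP5* was the 1 member of 7 that was at least 2-fold higher in smooth muscle-like barcodes in all 4 libraries, as were 1.63% of all 9670 genes tested. *IGFBP2* and *IGFBP4* were at least 2-fold higher in fibroblast-like barcodes in all 4 (2 of 7 members and 2.47% of the genes). *IGFBP2* was at 353, 119, 48.7 and 39.7 CPM against 18.3, 50.2, 15.02 and 16.0 CPM, and *IGFBP4* at 561, 921, 755 and 544 CPM against 191, 419, 238 and 239 CPM. *IGFBP6* was so in 3 of 4 libraries, and *IGFBP7* was lower in smooth muscle-like barcodes in 4 of 4 but less than 2-fold, with log2 ratios of smooth muscle to fibroblast between -0.82 and -0.18.

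Pericytes, the contractile cells that wrap small vessels, differed from fibroblasts mainly in the same members. Over 5 NB libraries (omasum, abomasum, duodenum, jejunum and ileum), *IGFBP2* was at 109, 13.3, 40.5, 2.86 and 28.7 CPM in pericyte-like and at 190, 353, 660, 119 and 231 CPM in fibroblast-like barcodes. The omasum epithelium held 1483 CPM, and the part of RNA released from it in these omasum values was not tested. *IGFBP4* was at 60.5, 226, 340, 301 and 439 CPM against 354, 561, 1032, 921 and 540 CPM. Both were lower in pericyte-like barcodes in all 5 libraries and at least 2-fold lower in 4, and 2 of 7 members and 7.68% of all 10187 genes tested were 2-fold lower in more than 2 of the 5. *IGFBP7* had the other direction, with 3217, 2451, 1984, 1865 and 2075 CPM in pericyte-like and 843, 1129, 1381, 1717 and 1588 CPM in fibroblast-like barcodes, higher in 5 of 5 libraries and at least 2-fold so in omasum and abomasum. *IGFBP5* ranged from 6.05 to 75.5 CPM in pericyte-like barcodes, higher than in fibroblast-like ones in 2 of 5 libraries, jejunum and ileum, both with overlapping intervals, and lower in 3.

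Leukocytes carried little IGFBP RNA, and *IGFBP4* was the member with the clearest level in them. Over the 12 libraries of both stages with both types, *IGFBP4* was at least 2-fold higher in macrophage- or monocyte-like than in T or NK-like barcodes in 8, whereas 12.8% of all 9742 genes tested were 2-fold higher in more than 6 of the 12. In the AD duodenum, jejunum, cecum and colon the levels were 19.7, 28.8, 50.7 and 35.8 CPM in macrophage- or monocyte-like against 1.68, 2.74, 1.14 and 0.743 CPM in T or NK-like barcodes, without overlap. In 8 NB libraries with both types the macrophage values lay between 10.9 and 67.9 CPM and the T or NK values between 7.35 and 23.0 CPM, and they overlapped. RNA released from other cells can enter any droplet, so the markers of the richest sources were read in the same barcodes. Leukocyte *IGFBP4* was 0.831% to 4.33% of the stromal level in 7 NB libraries and 46.2% in the salivary gland, whose stromal level was low, a larger share than that of *DCN* in 8 of 8. Leukocyte *IGFBP3* exceeded the share of *DCN* in 7 of 8 and that of the endothelial gene *VWF* in 8 of 8, and *IGFBP7* exceeded them in 6 of 8 and 2 of 8. *DCN* and *VWF* each stand for 1 lineage, whereas *IGFBP3*, *IGFBP4* and *IGFBP7* were high in both stroma and endothelium. Released RNA of both sources could raise their shares, so the shares cannot separate it from RNA made in leukocytes. In AD macrophage- or monocyte-like barcodes, *IGFBP7* was at most 0.141 CPM and *IGFBP3* at most 0.211 CPM.

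The comparison of NB with AD asks which of these levels differ by age in the 4 tissues sampled at both stages. It was made within a lineage, and a gene counted as different when the stages were at least 2-fold apart with at least 10 CPM in either. In the colon stroma, all 6 members that could be compared were at least 2-fold apart, in both directions. *IGFBP7* was at 2685 (2597–2775) CPM in NB and 808 (754–865) CPM in AD, a log2 ratio of 1.73, and *IGFBP2* at 23.7 (16.1–33.6) and 3.86 (1.05–9.88) CPM, a log2 ratio of 1.70, carried by 15 of 205 and 2 of 145 barcodes. These 2 members were higher in NB, as were 6.76% of all 8719 genes tested. *IGFBP5* was at 35.2 (25.7–46.9) CPM in NB and 409 (371–450) CPM in AD (log2 ratio -3.37), carried by 12 and 38 barcodes, *IGFBP3* at 1853 and 4448 CPM (-1.26), *IGFBP4* at 265 and 613 CPM (-1.19), and *IGFBP6* at 219 and 464 CPM (-1.06). These 4 were higher in AD, as were 9.79% of the genes, and the median log2 ratio of all genes was -0.05.

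Cell type markers moved along with these colon values. Summed over the list of 6 smooth muscle genes, the stromal barcodes held 1008 CPM in NB (5 of 6 genes detected) and 1922 CPM in AD (6 of 6). The fibroblast list summed to 13038 and 16776 CPM, the pericyte list to 1234 and 1301 CPM, the blood endothelial list to 477 and 115 CPM, and the B or plasma cell list to 172 and 1387 CPM. In fibroblast-like barcodes alone (149 in NB, 135 in AD), the log2 ratios were 1.93 for *IGFBP2*, -1.23 for *IGFBP3*, -1.41 for *IGFBP4*, -1.88 for *IGFBP5*, -0.98 for *IGFBP6* and 1.70 for *IGFBP7*. All 6 directions were thus the same there, the *IGFBP5* difference was smaller (36.9 against 149 CPM), and *IGFBP6* was just under 2-fold, as it was for all stromal barcodes when CPM were averaged over barcodes (-0.88). The part of the other cell types in the remaining differences was not tested.

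In the colon endothelium, *IGFBP7* was at 1891 (1811–1975) CPM in NB and 498 (432–572) CPM in AD (log2 ratio 1.91) and *IGFBP4* at 448 (409–489) and 159 (123–202) CPM (1.47). *IGFBP5* was at 43.8 CPM in NB and had no UMI in the 409287 UMIs of the 52 AD barcodes, where 3 counts would be 7.33 CPM. Its 48 NB UMIs, however, lay in 2 of 177 barcodes, so this value stands for those barcodes rather than for the lineage. Counting it, 3 of 7 members were at least 2-fold higher in NB, with 2 of the 7 under 10 CPM in both stages and not counted. Among all 8220 genes tested, however, 20.8% were so as well, and the median log2 ratio of all genes was 0.37. *IGFBP3* (603 and 386 CPM, log2 ratio 0.64) and *IGFBP6* (556 and 308 CPM, 0.84) were higher in NB as well, with intervals apart, but by less than 2-fold. For *IGFBP3* the direction turned, to -0.47, when CPM were averaged over barcodes. No member was at least 2-fold higher in AD, where 4.54% of the genes were. The AD endothelial barcodes held 66650 CPM summed over the B or plasma cell list against 1399 CPM in NB, 95.3 CPM over the lymphatic list against 1035 CPM, and 4767 CPM over the blood endothelial list against 5573 CPM. The part of these lists in the differences was not tested.

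**Figure D5:**
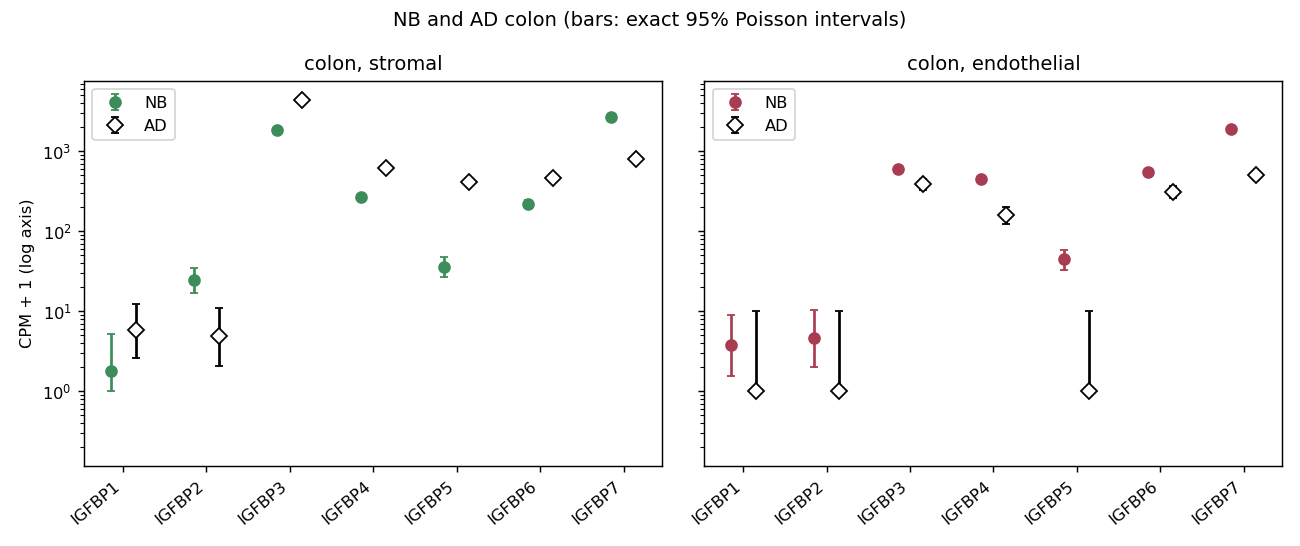
Level of each IGFBP gene (CPM + 1, log axis) in the colon of NB and AD cattle, by lineage, 1 library per stage, with exact 95% Poisson intervals as bars. In the stroma *IGFBP3*, *IGFBP4*, *IGFBP5* and *IGFBP6* are higher in AD and *IGFBP2* and *IGFBP7* in NB, while in the endothelium *IGFBP3* to *IGFBP7* are all higher in NB, *IGFBP3* and *IGFBP6* by less than 2-fold, *IGFBP3* with the opposite direction (log2 ratio -0.47) for the mean over barcodes, and *IGFBP5* from UMIs in 2 of 177 barcodes.

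In the gut epithelium, *IGFBP2* was higher in AD in each of the 3 tissues compared: 1.82 CPM in NB and 43.1 CPM in AD in the jejunum (log2 ratio -2.82), 1.14 and 15.7 CPM in the cecum (-1.75), and 1.83 and 26.2 CPM in the colon (-2.19). The AD values came from 38 of 202, 31 of 295 and 22 of 171 barcodes. The list of tuft cell genes moved with them, with 2.06, 3.80 and 5.17 CPM in the NB and 358, 58.5 and 119 CPM in the AD epithelial barcodes of jejunum, cecum and colon (1, 2 and 5 of 6 genes detected in NB, 4 of 6 in each AD library). Enterocyte-like *IGFBP2* was at 0 to 11.5 CPM in NB and at 0.965 to 11.5 CPM in AD. The part of tuft-like cells in the difference was not tested. The AD jejunum was also higher for *IGFBP5* (0.661 and 34.2 CPM, -2.79), and the AD colon for *IGFBP4* (33.2 and 97.3 CPM, -1.42), which fell short of 2-fold with overlapping lineages (-0.71) and with TMM scaling (-0.98). The members higher in AD were thus 2 in the jejunum, 1 in the cecum and 2 in the colon. The shares of all genes were 16.2%, 8.51% and 17.0%, at median log2 ratios of -0.33, -0.21 and -0.38. In jejunum, cecum and colon, 1, 4 and 5 members were under 10 CPM in both stages and not counted. In the other direction, 3 members were higher in the NB jejunum and 1 in the NB cecum (6.62% and 6.47% of all genes), and none in the NB colon (4.69%). They were *IGFBP3* (19.8 and 1.05 CPM), *IGFBP6* (11.3 and 1.58 CPM) and *IGFBP7* in the jejunum, where it was at 16.1 CPM in NB and had no UMI in AD, at least 10.2-fold higher, and *IGFBP7* in the cecum, at 24.3 CPM from 11 of 253 barcodes against no UMI, at least 28.4-fold higher. The cecum call ended with 2 marker UMIs and without the upper gene limit, and those of *IGFBP6* and *IGFBP7* in the jejunum with 2 marker UMIs, since the levels were then under 10 CPM in both stages. With overlapping lineages, more members were instead higher in NB in the cecum and the colon, as they were in the colon with the mean per barcode. The fibroblast and blood endothelial lists followed the same direction in these epithelial barcodes, with 33.0 and 83.8 CPM in the NB jejunum against 2.63 and 1.05 CPM in AD, and with 118 and 36.8 CPM in the NB cecum against 0.571 and 0.571 CPM in AD. Their part in these low values was not tested.

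In leukocytes, each member that differed was higher in NB: *IGFBP3* (10.6 and 0.0367 CPM) and *IGFBP4* (29.4 and 3.49 CPM) in the duodenum, *IGFBP3* (19.0 and 0.411 CPM) and *IGFBP7* (11.7 and 0.0587 CPM) in the jejunum, and *IGFBP4* in the cecum (28.2 and 1.55 CPM) and the colon (11.3 and 1.68 CPM). In duodenum, jejunum, cecum and colon the counts were 2, 2, 1 and 1 of 7 members, with 5, 4, 6 and 6 members under 10 CPM in both stages and not counted. Of all genes tested, 13.7%, 6.08%, 15.1% and 12.1% were likewise higher in NB. No member was at least 2-fold higher in AD, where 16.9%, 8.8%, 12.1% and 11.4% of all genes were. With overlapping lineages this changed in the colon, where a member was higher in AD, and more members were higher in NB in cecum and colon. With 2 marker UMIs, *IGFBP3* in the duodenum and *IGFBP7* in the jejunum were under 10 CPM in both stages. In the jejunum, *IGFBP4* was level between the stages, at 15.2 and 14.9 CPM. The macrophage or monocyte list summed to 16244, 14979, 3487 and 1054 CPM in the NB and to 1212, 6399, 385 and 585 CPM in the AD leukocytes of these tissues. The blood endothelial list summed to 43.0, 60.5, 25.6 and 14.9 CPM against 5.07, 3.55, 6.03 and 5.24 CPM. Their part was not tested. In the 3 tissues with both types at both stages (jejunum, cecum and colon), *IGFBP4* in macrophage- or monocyte-like barcodes was at 17.7, 67.9 and 49.5 CPM in NB and at 28.8, 50.7 and 35.8 CPM in AD. In T or NK-like barcodes it was at 17.3, 15.1 and 20.6 CPM in NB and at 2.74, 1.14 and 0.743 CPM in AD.

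The partners of the IGFBPs were read from a list of 25 further genes of the pathway. Of the ligands, *IGF2* was abundant in the NB stroma, from 518 CPM through a median of 2360 to 4234 CPM in the salivary gland, and lower in the endothelium (183 to 1213 CPM). *IGF1* ranged from 3.06 to 101 CPM in the stroma, again highest in the salivary gland, and *INS* had no UMI in stroma or endothelium. Of the receptors, the clearance receptor *IGF2R* was at 32.7 to 461 CPM in the NB stroma, while the signaling receptors *IGF1R* and *INSR* were at 2.49 to 20.2 CPM and 0.764 to 9.84 CPM. Of the proteases, *HTRA1*, which cuts several IGFBPs, was at 186 to 484 CPM in the stroma and 85.6 to 650 CPM in the endothelium, and *PAPPA* did not exceed 8.70 CPM. *STC1*, an inhibitor of PAPPA, was at 61.4 to 448 CPM in the endothelium and at most at 51.4 CPM in the stroma, without overlap. Among the genes with an IGF binding domain, *HTRA3* was stromal (22.7 to 439 CPM, at most 0.978 CPM in the endothelium) and *ESM1*, a gene of endothelial tip cells, reached 147 CPM in the endothelium.

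In the colon stroma, 12 of these 25 genes reached 10 CPM. *IGF2* (838 CPM in NB and 152 CPM in AD), *HTRA3* (172 and 63.6 CPM) and *CCN2* (561 and 245 CPM) were at least 2-fold higher in NB. *IGF1* (3.06 and 17.4 CPM, from only 4 and 18 UMIs) was higher in AD, and 8 were less than 2-fold apart. The shares of all genes tested there were 6.76% and 9.79%. The ligands *IGF2* and *IGF1* thus lay on opposite sides of the stage comparison, as did *IGFBP2* and *IGFBP7* against *IGFBP3* to *IGFBP6*. In the colon endothelium, 5 of 10 genes were higher in NB, among them *IGF2* (610 and 90.4 CPM), where 20.8% of all genes tested were, and *ESM1* was higher in AD (59.3 and 159 CPM). Fewer were higher in NB with TMM scaling or the mean per barcode. *IGF1*, also among the 5, rested on 19 and 2 UMIs with overlapping intervals.

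The genes most like each member were found by Pearson correlation of log2(CPM + 5) over the 50 profiles, among 10561 genes. The profiles share libraries and lineages, so these values are a description. By Spearman correlation only 5 of the 21 genes were again among the nearest, namely *BMPR2* and *SELENON* for *IGFBP4*, *IGFBP3* for *IGFBP6*, and *COL4A1* and *ARMCX1* for *IGFBP7*. For *IGFBP7* they were *COL4A1* (0.98), *COL4A2* (0.98) and *ARMCX1* (0.97), the first of which encode basement membrane collagens. *IGFBP3* and *IGFBP6* were among the nearest genes of each other (0.96), and *EHD2*, a gene of caveolae, was near to both (0.96 and 0.96), with *MAP1B* (0.94) next for *IGFBP3* and *CAVIN1* (0.95) for *IGFBP6*. *IGFBP5* was nearest to *COL14A1* (0.90), *CHRDL1* (0.87) and *OSR1* (0.87), genes of fibroblasts. *IGFBP2* was nearest to *LYPD3* (0.85), *HOXC4* (0.83) and *HOXC5* (0.82), and *IGFBP4* to *BMPR2* (0.94), *RHOC* and *SELENON*. For the sparse *IGFBP1* the highest value was 0.72, with *CAPN6*. Between members, the chromosome neighbors *IGFBP2* and *IGFBP5* had a correlation of 0.57 and *IGFBP1* and *IGFBP3* one of 0.30, both below the 0.96 of *IGFBP3* and *IGFBP6*, which lie on different chromosomes.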

How the data were processed

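Counts of UMIs per gene and barcode were deposited by the authors as 1 matrix per library, made with Cell Ranger 3.1.0 (per the submitters' processing notes) against the ARS-UCD1.2 assembly, and these deposited counts were not normalized. Kept barcodes had at least 500 and at most 4000 genes, less than 40% of their UMIs from mitochondrial genes and fewer than 50000 UMIs, following the study's stated limits. The highest doublet scores (0.8% per 1000 barcodes, from simulated doublets in 30 principal components of 2000 genes) were removed. UMIs were then summed per library and lineage, expressed as CPM, and compared as log2(CPM + 5). With 1 library per tissue and stage there was no test, and a gene was counted when it was at least 2-fold apart with at least 10 CPM in either profile. Where a gene had no UMI in a profile, a fold written as at least N-fold was computed against 3 counts, whereas a log2 ratio of such a gene is set by the pseudocount and is no bound. Intervals are exact Poisson intervals for 95% coverage. UMIs are not fully independent molecules, so they cover counting error only.

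All kept barcodes, whatever their lineage marker, were also assigned to marker lists, by UMIs of at least 3 genes of a list and of more of them than of any other list. The named genes were the 7 members, the lineage and tissue markers, the marker lists, the 25 pathway genes and the 3 genes most like each member. The members and all lists were chosen with earlier results of these data known, and the contrasts between marker lists were chosen after their levels had been seen. The comparison of forestomach with other epithelia was not among those planned beforehand.

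Alternatives covered the lineage gate, doublet removal, the mitochondrial and gene limits, averaging, scaling, TMM factors from edgeR 4.0.16, the pseudocount, the low-level filter, the minimum number of barcodes, the marker-list minimum and Spearman correlation. The counting rule was tested on simulated data for the stage comparison of the colon stroma: of 200 changed genes, 68 were found at a simulated 2-fold, 198 at 4-fold and 200 at 8-fold change, and 18 of 8234 unchanged genes were counted at the first. Both simulated stages were Poisson draws from the AD colon stromal profile. These counts therefore cover counting error only, not differences between animals, dissociations or barcodes. The software was R 4.3.3, Python 3.11.15, scikit-learn 1.9.0, pandas 2.3.3, scipy 1.17.1, matplotlib 3.10.9 and numpy 2.4.6. Chromosomes and gene neighbors came from the RefSeq annotation of ARS-UCD2.0, and no sequence or base position was used.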

Additional observations from a re-analysis of the deposited data

Results flagged for a closer look

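In the colon, the NB over AD ratio of 5 members took opposite signs in different lineages. The differences are between single libraries and were not tested. For *IGFBP5*, the log2 ratio was -3.37 in the stroma and 3.29 in the endothelium, a difference of -6.65, and the endothelial ratio rests on 48 UMIs in 2 of 177 NB barcodes and 0 UMIs in 52 AD barcodes. With no AD UMI, the values 3.29 and -6.65 are set by the pseudocount and are not estimates of a fold: the endothelial ratio ranged from 2.08 to 5.48 over the alternatives, and 3 AD counts would put NB at least 5.97-fold higher. For *IGFBP2* it was -2.19 in the epithelium and 1.70 in the stroma, a difference of -3.89. For *IGFBP4*, the ratio was -1.42 in the epithelium, -1.19 in the stroma, 1.29 in leukocytes and 1.47 in the endothelium. The epithelium therefore differed by -2.71 from leukocytes and by -2.89 from the endothelium, leukocytes differed by 2.49 from the stroma, and the stroma by -2.66 from the endothelium. For *IGFBP3* (-1.26 in the stroma and 0.64 in the endothelium) the difference was -1.90, and for *IGFBP6* (-1.06 and 0.84) it was -1.91. The endothelial ratios of these last 2 members were under 2-fold, and that of *IGFBP3* ranged from -0.47, for the mean over barcodes, to 0.80 over the alternatives, so its sign depended on the processing.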

How the results depend on the processing

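The alternatives for the low-level filter and the minimum number of barcodes leave a stage ratio unchanged by construction. The smaller pseudocount can only enlarge it, so these recomputations could not fail. With them included, the 24 stage ratios of at least 2-fold were recomputed 258 times in all. The direction was the same in 258, and 254 were still at least 2-fold. Those lost were *IGFBP4* in the colon epithelium (-0.71 with overlapping lineages, -0.98 with TMM) and *IGFBP6* in the colon stroma (-0.88 with the mean per barcode, -0.98 in fibroblast-like barcodes). A further 6 had no value because the member was under 10 CPM in both stages and was no longer counted: with 2 marker UMIs, *IGFBP6* and *IGFBP7* in the jejunum epithelium, *IGFBP7* in the cecum epithelium, *IGFBP3* in duodenum and *IGFBP7* in jejunum leukocytes, and without the gene limit *IGFBP7* in the cecum epithelium. Counts of members moved as follows, and the causes were not tested. With overlapping lineages, members led by the stroma fell from 2 to 1, members with stroma and endothelium both above the rest from 4 to 1, and members higher in NB went from 1 to 4 in the cecum epithelium, from 0 to 1 in the colon epithelium, from 1 to 2 in the leukocytes of cecum and colon, while those higher in AD went from 0 to 1 in colon leukocytes. With at least 2 UMIs of the lineage marker, members higher in NB were 0 in the cecum epithelium, 1 in the jejunum epithelium (from 3), and 1 in the leukocytes of duodenum and of jejunum (from 2). Without the gene limit the cecum epithelium had 0, and without genes over 1% of the UMIs it had 2. Without the low-level filter there were 2 in the cecum epithelium, 1 in the colon epithelium and 2 in cecum leukocytes, and with the mean per barcode 2 in the colon epithelium and 2 in cecum leukocytes. With TMM, members higher in the AD colon epithelium were 1 (from 2), and pathway genes higher in the NB colon endothelium were 3 (from 5), as with the mean per barcode. By Spearman correlation, 5 of the 21 nearest genes were shared.

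Leaving out a replicate could not be done, since each group had 1 library, and no paired analysis was possible because no group had replicates. The colon endothelium could not be recomputed with 2 marker UMIs or under 10% mitochondrial UMIs, which left too few AD barcodes. Depth limits the sparse profiles: 3 counts were 14.8 CPM in the NB reticulum stroma, 8.52 CPM in the NB omasum endothelium and 7.33 CPM in the AD colon endothelium.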
